A study of Mus musculus with 8 samples.

Results

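The change between 15 and 45 min of LPS was described in RAW264.7 cells, a mouse macrophage line, by comparing the 45 min library with the 15 min library, 2 of the 8 libraries of a time course. All 8 came from this line: 1 library of unstimulated cells (0 min) and 7 of cells given 100 ng/ml LPS of E. coli serotype O111:B4 for 15, 30, 45, 60, 75, 90 or 120 min, with no genetic change and 1 library per time point. Of the 23143 genes in the count table, 11039 had at least 50 reads in the 15 or the 45 min library and enter the comparison. A gene with fewer than 50 reads in 1 of the 2 enters only through the other, which favours ratios in the direction of that library. A gene was called higher or lower when its scaled count (reads divided by the size factor of the library) differed by at least 2-fold. No test is possible with 1 library a side: every interval given is an exact conditional binomial 95% interval of the 45 to 15 min ratio, which covers counting error only and not the spread between cultures.

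LPS, a component of the outer membrane of Gram-negative bacteria, is recognised by TLR4, and the signal passes through the kinases of the NF-kB and MAPK pathways to transcription factors that are already present in the cell. The first genes to respond encode short-lived transcription factors, cytokines and the inhibitors that later turn the same pathways down. Many of these early mRNAs are themselves short-lived, so that their level can go up and down within an hour of stimulation.

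The 15 and 45 min libraries held 123434945 and 112983092 reads, within the range of 100250892 to 159077286 over the 8 libraries, and had size factors of 1.05 and 0.89. The ribosomal RNA precursor Rn45s took 12.96% of the reads at 15 min and 16.64% at 45 min, against 8.18% to 9.11% at 0, 30, 60 and 120 min and 15.80% to 20.53% at 75 and 90 min. Both libraries compared were therefore among the 4 with a high Rn45s share. Of the macrophage markers, 11 of 11 with a row had enough reads and none was called. Of all genes with enough reads, 1.78% were called higher and 0.670% lower. The log2 ratios of the markers had a median of -0.04 and ran from -0.22 to 0.73. The lysozyme gene Lyz2 was at 0.976 (0.972 to 0.980) of the 15 min level and the receptor gene Csf1r at 0.990 (0.982 to 0.998). Cd14 had the largest ratio of these markers, 1.66 (1.64 to 1.67). Markers of fibroblasts, epithelium and endothelium summed to at most 0.329 counts per 1e6 reads in every library and those of lymphocytes to at most 1.64, and Cd3e, Ms4a1, Col1a1, Col1a2, Col3a1, Epcam and Cdh1 had no read at 15 or 45 min. The labels give total RNA as the molecule and cytoplasmic as the RNA fraction, and the methods speak of total RNA. The summed scaled count of the nuclear-retained RNAs was 379500 at 15 min and 513988 at 45 min, against 258804 at 0 min, and Malat1, a nuclear long noncoding RNA, was 1.34-fold (1.34 to 1.35) higher at 45 than at 15 min. The summed small nucleolar RNAs were at 75406 and 60431, and at 114069 at 0 min. The part of these differences in the results below was not tested.

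From 15 to 45 min, 196 genes were called higher, 1.78% of those with enough reads, and 74 were called lower, 0.670%. The median log2 ratio of all 11039 genes was -0.01. In such bulk libraries, a change in the number of responding cells and a change in the RNA per cell cannot be told apart. Among the genes called higher, 190 had an mRNA accession, 73 were at least 4-fold higher, 40 at least 8-fold, 16 at least 16-fold and 12 at least 32-fold. None of the genes called lower reached 8-fold and 5 reached 4-fold. The whole counting interval lay beyond 2-fold for 161 of the genes called higher and for 29 of those called lower. Scaled by total counts in place of size factors, every log2 ratio was 0.12 lower, and 173 genes were called higher and 112 lower, so that the share of higher genes among those called was 60.7% in place of 72.6%. The annotated span of 68 of the 196 and of 23 of the 74 overlapped another gene, and whether the counting used strand is not stated, so that reads of overlapping genes cannot be told apart; among the genes named below with the largest ratios this holds for Il1a, Il1b, Dusp8, Csf3, Tmem88, Txnip, F630028O10Rik and Tigd5.

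**Figure D1:**
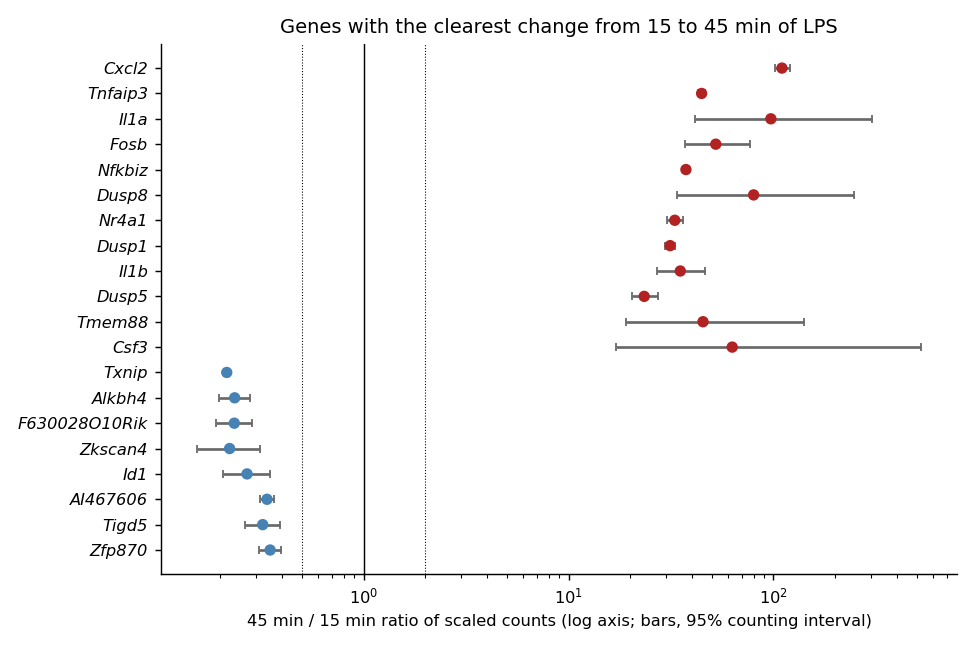
Ratio of the scaled counts at 45 and 15 min on a log axis for the 12 genes called higher with the highest lower bound (red) and the 8 called lower with the lowest upper bound (blue), with 1 library a side; bars are 95% counting intervals and dotted lines mark 2-fold. Cxcl2 was 110-fold higher and Txnip was at 0.215 of its 15 min level, and the widest bars belong to genes with 2 to 5 reads at 15 min, Csf3, Il1a, Dusp8 and Tmem88.

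The 3 genes that mark this step, Tnfaip3, Fosb and Dusp1, were each between 31.3-fold and 52.3-fold higher at 45 than at 15 min. Tnfaip3 encodes A20, a ubiquitin-editing enzyme that shuts off NF-kB signalling. In the 8 libraries, taken in the order of time from 0 to 120 min, it had scaled counts of 1632, 2529, 51275, 112779, 35105, 27772, 52493 and 64961. The 45 min value was the highest of the 8, and the lower values at 60 and 75 min were followed by higher ones at 90 and 120 min. The ratio of 45 to 15 min was 44.6 (42.9 to 46.4), a log2 difference of 5.48.

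Fosb encodes a Fos family subunit of the AP-1 transcription factor. It had scaled counts of 6.84, 30.5, 581, 1594, 1006, 591, 404 and 139 in the same order, which is kept for all series of 8 values below. The gene had 8 reads before LPS, was highest at 45 min and was lower in each later library. The ratio of 45 to 15 min was 52.3 (36.9 to 76.8), from 32 and 1411 reads. Dusp1 encodes a phosphatase that inactivates MAP kinases. It had scaled counts of 496, 1215, 14206, 37988, 20152, 14071, 16397 and 13689 in the same order, so that the level after 45 min came down to a plateau well above the start. Its ratio was 31.3 (29.6 to 33.1).

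The promoter windows of Tnfaip3, Fosb and Dusp1 are shown as those of the genes that mark this step. Shown with them are those of Cxcl2, the gene with the largest ratio, and Txnip, the gene called lower with the lowest upper bound. Each window runs from 250 bases before to 50 after an annotated start, from RefSeq on GRCm38.p6, and is written in the direction of transcription. They lie at chr10:19015361-19015660 on the minus strand (Tnfaip3, 1 of 2 annotated windows), chr7:19309996-19310295 on the minus strand (Fosb), chr17:26508423-26508722 on the minus strand (Dusp1), chr5:90903649-90903948 on the plus strand (Cxcl2) and chr3:96557707-96558006 on the plus strand (Txnip). Capitals mark matches on either strand to the kB site bound by NF-kB, the cyclic AMP response element TGACGTCA or its first 6 bases TGACGT, the AP-1 site TGANTCA, the CArG box, the EGR site GCGTGGGCG and the TATA core TATAAA.
Tnfaip3: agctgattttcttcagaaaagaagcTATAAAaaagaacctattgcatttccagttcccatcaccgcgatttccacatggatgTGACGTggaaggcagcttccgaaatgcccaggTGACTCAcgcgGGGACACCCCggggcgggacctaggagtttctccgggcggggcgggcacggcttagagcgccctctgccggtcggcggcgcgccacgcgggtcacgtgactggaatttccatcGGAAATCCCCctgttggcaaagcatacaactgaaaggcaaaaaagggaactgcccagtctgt
Fosb: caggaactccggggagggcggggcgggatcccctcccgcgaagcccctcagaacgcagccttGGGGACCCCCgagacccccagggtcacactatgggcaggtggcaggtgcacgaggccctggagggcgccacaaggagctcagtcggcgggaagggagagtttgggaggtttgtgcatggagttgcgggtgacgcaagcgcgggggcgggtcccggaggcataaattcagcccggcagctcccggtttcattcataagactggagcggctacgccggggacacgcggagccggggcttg
Dusp1: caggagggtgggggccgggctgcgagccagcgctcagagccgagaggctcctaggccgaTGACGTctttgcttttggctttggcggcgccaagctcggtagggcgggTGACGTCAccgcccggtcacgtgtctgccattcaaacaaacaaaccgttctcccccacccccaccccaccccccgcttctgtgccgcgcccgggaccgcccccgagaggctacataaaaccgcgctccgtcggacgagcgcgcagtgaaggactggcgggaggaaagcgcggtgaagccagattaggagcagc
Cxcl2: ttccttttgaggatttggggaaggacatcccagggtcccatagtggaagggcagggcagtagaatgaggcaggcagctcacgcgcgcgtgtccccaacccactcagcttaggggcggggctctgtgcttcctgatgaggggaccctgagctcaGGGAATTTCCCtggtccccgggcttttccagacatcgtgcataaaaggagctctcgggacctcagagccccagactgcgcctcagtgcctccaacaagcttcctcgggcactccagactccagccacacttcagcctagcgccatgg
Txnip: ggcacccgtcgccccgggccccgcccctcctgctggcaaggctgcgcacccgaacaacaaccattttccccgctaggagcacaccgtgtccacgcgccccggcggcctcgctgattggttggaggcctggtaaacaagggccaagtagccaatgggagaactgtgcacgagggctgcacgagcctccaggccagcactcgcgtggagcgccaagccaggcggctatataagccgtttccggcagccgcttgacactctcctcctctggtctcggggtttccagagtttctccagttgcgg
Tnfaip3 held a kB match 125 to 116 bases before the start and another 12 to 3 bases before it, besides an AP-1 match, a TGACGT and a TATAAA. Cxcl2 held a pair of overlapping kB matches between 97 and 87 bases before the start, Fosb held 1 kB match 188 to 179 bases before it, and Dusp1 held a full TGACGTCA between 143 and 136 bases before it and a further TGACGT upstream. The window of Txnip held none of these letters. A match is a description of the letters and not evidence of binding.

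The inhibitors of NF-kB formed a group in which Tnfaip3 and Nfkbiz were over 32-fold higher at 45 than at 15 min and others were near the limit or level. Of 17 genes of this list with enough reads, 7 were called higher (41.2%, against 1.78% of all genes with enough reads) and none lower (against 0.670%). Besides Tnfaip3 they were Nfkbiz, Ier3, Nfkbid, Nfkbia, Nfkbib and Trib3. The list median was 0.36 on the log2 scale against -0.01 for all genes. This list and those below were chosen with earlier results of these data known, so their shares are a description. Nfkbiz, an atypical nuclear IkB protein that shapes the choice of NF-kB target genes, had scaled counts of 767, 2836, 44318, 106061, 122089, 70448, 60739 and 85680 from 0 to 120 min and a ratio of 37.4 (36.1 to 38.8). It reached its highest value 1 library later than Tnfaip3.

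Nfkbia encodes IkBa, which holds NF-kB in the cytoplasm and is itself an NF-kB target. It started from a higher level of its own and had scaled counts of 13858, 23272, 84850, 100498, 50927, 55323, 86703 and 105352. Its course had the same form as that of Tnfaip3, with high values at 30 to 45 min, a drop at 60 to 75 min and a second increase. The ratio of 45 to 15 min was 4.32 (4.26 to 4.38). Ier3, a stress-inducible regulator of survival, was 7.22-fold higher (6.94 to 7.51) and the nuclear inhibitor Nfkbid 5.18-fold (5.02 to 5.36). Nfkbib, a second cytoplasmic IkB, was 2.30-fold higher (2.12 to 2.51) and the pseudokinase gene Trib3 2.29-fold (2.11 to 2.50). The A20 partners were not called, with Tnip3 at 1.47-fold (lower bound 1.44), Tnip1 at 1.28-fold (1.25 to 1.32) and Tax1bp1 at 1.08-fold (1.06 to 1.10).

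Of the 5 NF-kB subunits, only Rel was called higher, at 3.03-fold (2.81 to 3.27), and none was called lower. The shares of all genes with enough reads were 1.78% and 0.670%. The list median was 0.93 on the log2 scale against -0.01 for all genes. Rela, a transactivating subunit, had scaled counts of 3354, 3546, 4249, 6751, 8014, 8493, 7670 and 7376 and a ratio of 1.90 (1.83 to 1.98), just below the limit. Relb, chosen here after its value was seen, was at 1.93-fold (1.84 to 2.03), so that its counting interval spans the limit. Rel, Rela and Relb were at least 2-fold higher at 60 against 0 min, against 2.84% of all genes. Nfkb2 was at 1.42-fold (1.38 to 1.47) from 15 to 45 min. Nfkb1 was level over this step, at 0.997 of the 15 min value (0.977 to 1.02), and was higher only in the libraries from 60 min on, with 24950 at 60 min and 48192 at 120 min against 19350 at 0 min.

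Of the phosphatases and adaptors that limit MAPK signalling, phosphatases were called in both directions and no adaptor was called. Of 14 with enough reads, 6 were called higher (42.9%, against 1.78% of all genes with enough reads). All of these were dual-specificity phosphatases (Dusp1, Dusp2, Dusp4, Dusp5, Dusp8 and Dusp16). Dusp6 was the 1 called lower (7.14%, against 0.670%). The list median was 0.62. Dusp5, a nuclear phosphatase for ERK, had scaled counts of 152, 186, 1460, 4348, 6714, 5545, 6608 and 10979 and a ratio of 23.4 (20.3 to 27.2). Dusp8, which acts on the stress-activated kinases, had 5 and 337 reads and a ratio of 80.0 (33.9 to 248). Dusp2, a nuclear phosphatase of immune cells, was 8.01-fold higher (7.68 to 8.36) and highest at 45 min.

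Dusp4 and Dusp16 were higher mainly in the second part of the step. Dusp16, a phosphatase for JNK, had scaled counts of 911, 938, 1087, 2858, 7629, 11203, 8938 and 6666, and only 13.2% of its log2 change from 15 to 45 min had been reached at 30 min. Its ratio was 3.05 (2.83 to 3.28), and that of Dusp4, a nuclear ERK phosphatase, was 2.87 (2.74 to 3.01). Dusp6, the cytoplasmic phosphatase of ERK, went the other way, with 2842, 3294, 2504, 1626, 641, 635, 498 and 335. Its ratio was 0.494 (0.464 to 0.525), so that its counting interval spans the limit, and the values continued downwards to 120 min. Dusp7, a related cytoplasmic ERK phosphatase that was not called, was at 0.633 (0.596 to 0.673) and Spred1, an adaptor that restrains Raf, at 1.04 (1.02 to 1.05).

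**Figure D2:**
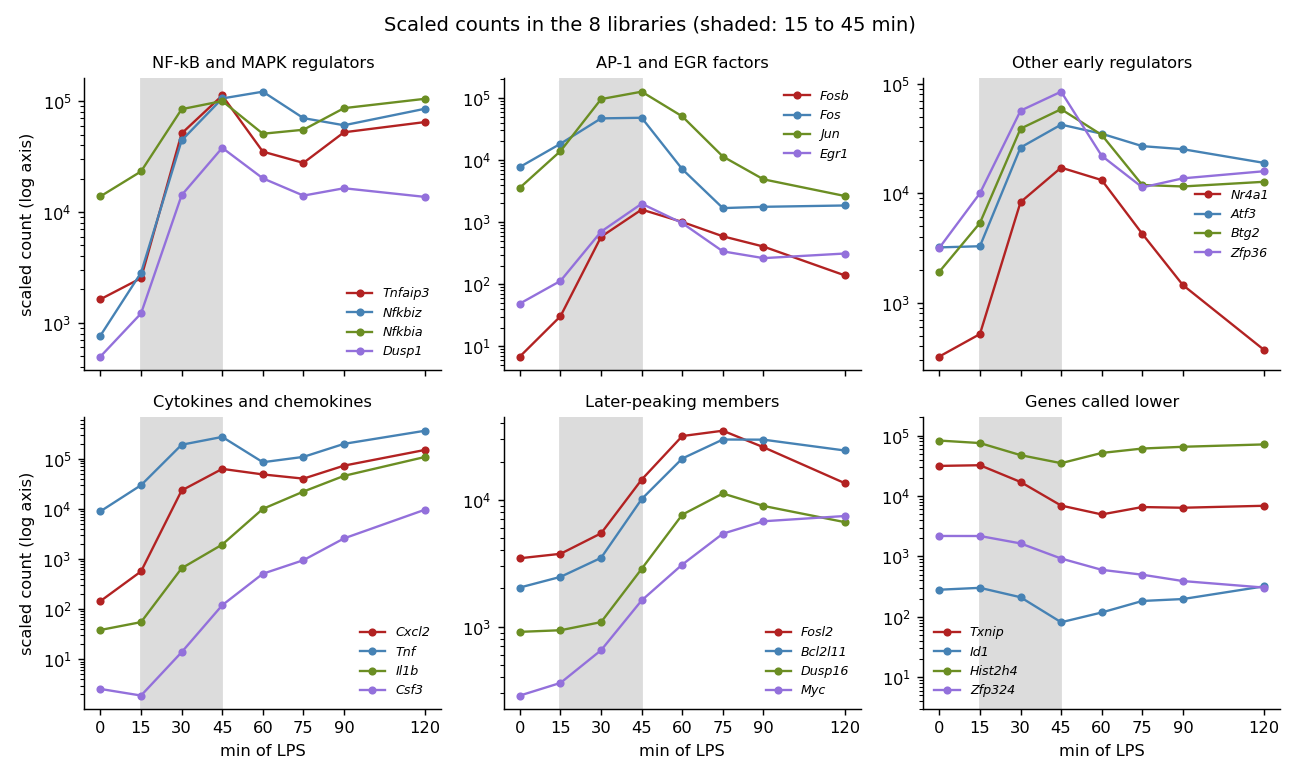
Scaled counts on a log axis against minutes of LPS for 24 named genes in 6 panels, 1 library per time point, with the 15 to 45 min step shaded. Tnfaip3, Dusp1, Fosb, Jun, Nr4a1 and Zfp36 were highest at 45 min, Il1b and Csf3 continued upwards to 120 min, Fosl2, Bcl2l11 and Dusp16 were highest at 75 min, and Txnip remained low after 45 min while Hist2h4 and Id1 returned towards their starting level.

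Immediate early transcription factors and their companions were, with the survival and stress genes, the lists with the largest share called higher. Of 30 with enough reads, 22 were called higher (73.3%, against 1.78% of all genes with enough reads) and none lower, with a list median of 2.20. They covered the AP-1 subunits Fos, Fosb, Fosl1, Fosl2, Jun, Junb and Jund, the zinc-finger factors Egr1, Egr2, Egr3 and Klf6, the nuclear receptor Nr4a1, and Atf3, Maff, Myc, Rel and Csrnp1, together with Ier2, Ier5, Btg2, Arc and Zfp36. In the 30 min library 18 of the 22 were at least 2-fold above the unstimulated one, as were 95 of all 196 genes called higher. The calls did not use that library, but it lies between the compared times of the same course. The 30 or 45 min library held the highest value of 11, the 60 min library that of 5, the 75 or 90 min library that of 1 and the 120 min library that of 5.

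Nr4a1, an orphan nuclear receptor, had a transient course. Its scaled counts were 323, 518, 8289, 17107, 13176, 4254, 1450 and 371, so that the 120 min value was within 1.15-fold of the unstimulated one. The ratio of 45 to 15 min was 33.0 (30.3 to 36.1). Egr1, a zinc-finger factor that responds to growth factors and stress, had 48.8, 113, 703, 1980, 963, 338, 263 and 312, a ratio of 17.5 (14.5 to 21.2). Its level too was highest at 45 min, but at 120 min it had not returned to that at 0 min.

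The AP-1 subunits differed in timing. Fos was early, with 7734, 18322, 46927, 47988, 7127, 1683, 1765 and 1854. The values at 30 and 45 min were nearly the same, 97.7% of the log2 change having been reached at 30 min, and those from 60 min on were below the unstimulated value. Its ratio of 45 to 15 min was thus only 2.62 (2.57 to 2.66). Jun had 3585, 13951, 95944, 126315, 50507, 11399, 4892 and 2640, a ratio of 9.05 (8.90 to 9.21), and also ended below its unstimulated value.

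Junb, at 5.33-fold (5.26 to 5.40), was highest at 45 min but held its level, with 151042 at 45 min and 126141 at 120 min. Fosl2 came later, with 3461, 3751, 5442, 14412, 31742, 34972, 25916 and 13523 and a ratio of 3.84 (3.71 to 3.98), and Fosl1, at 4.93-fold (4.56 to 5.34), was highest at 120 min. Jund, often regarded as the constitutive Jun protein, was 2.35-fold higher (2.29 to 2.42). Atf3, a repressor of inflammatory genes, was 12.9-fold higher (12.4 to 13.3), Maff, a small Maf protein, 15.7-fold (14.1 to 17.6) and Egr2 11.8-fold (11.2 to 12.4). Myc was 4.47-fold higher (3.99 to 5.02) and was highest at 120 min. Ier2 was the 1 gene of the 196 whose 30 min value (69320) was above that at 45 min (58974). Srf, Btg1 and Mafk, the members with the most reads that were not called, were at 1.69-fold (1.65 to 1.73), 1.46-fold (1.42 to 1.49) and 1.59-fold (1.53 to 1.65).

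Among the regulators of mRNA decay, 4 of 27 were called higher (14.8%, against 1.78% of all genes with enough reads) and none lower. The list median was 0.22. Zfp36 encodes tristetraprolin, which binds AU-rich elements of cytokine mRNAs and brings about their degradation; it also stands in the lists of immediate early genes and of genes named Zfp. It had scaled counts of 3172, 9993, 56641, 84459, 21936, 11301, 13667 and 15868 and a ratio of 8.45 (8.28 to 8.63). Btg2, which activates deadenylation, had 1920, 5348, 38815, 58425, 34051, 11881, 11519 and 12708 and a ratio of 10.9 (10.6 to 11.2). Both were highest at 45 min. Zc3h12a encodes the endonuclease Regnase-1 and was 4.86-fold higher (4.52 to 5.23), and its relative Zc3h12c was 2.39-fold higher (2.32 to 2.46). Both of these continued upwards to 120 min, Zc3h12c to 97253 scaled counts from 17513 at 45 min. The deadenylase scaffold Cnot1, at 1.12-fold (1.10 to 1.13), and the stabilising protein gene Elavl1, at 1.10-fold (1.08 to 1.12), were not called.

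The cytokines and chemokines reached the largest ratios. Of 26 with enough reads, 13 were called higher, against 1.78% of all genes with enough reads. None was called lower, against 0.670%, and the list median was 1.06. Cxcl2, a chemokine that attracts neutrophils, had the highest lower bound of the 196 genes. Its scaled counts were 145, 566, 23209, 62410, 48402, 39878, 72439 and 149203 from 0 to 120 min. The values showed a first maximum at 45 min, lower values at 60 and 75 min and a higher level after that, and the ratio of 45 to 15 min was 110 (102 to 120).

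Tnf, the tumour necrosis factor gene, followed the same order with 8922, 29548, 188930, 270564, 84755, 108231, 196879 and 359742. Its ratio was 9.16 (9.05 to 9.27), and its 60 min value lay well below those at 45 and 120 min. Il1b, an inflammatory cytokine made as an inactive precursor, had no such dip, with 38.5, 55.2, 654, 1938, 9961, 22044, 45311 and 108097. Its ratio over the step was 35.1 (27.0 to 46.4), and the 120 min value was a further 55.8-fold above that at 45 min.

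The cytokines Il1a, Csf3 and Lif were close to the detection limit at 15 min. Il1a had 5 and 409 reads in the compared libraries, a ratio of 97.1 (41.3 to 301), and 13504 scaled counts at 120 min. Csf3, a growth factor for granulocytes, had 2 and 106 reads, a ratio of 62.9 (17.0 to 526), and 9634 scaled counts at 120 min. Lif, a cytokine of the interleukin-6 family, had 3 and 65 reads, a ratio of 25.7 (8.42 to 128), and 10307 scaled counts at 120 min.

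The chemokine genes Ccl3 and Ccl4, whose annotated spans overlap each other, were 3.55-fold (3.44 to 3.66) and 6.52-fold (6.14 to 6.93) higher. Cxcl10, which also counts as an interferon-stimulated gene, was 13.3-fold higher (11.6 to 15.2). Osm was 6.43-fold higher (5.79 to 7.15), Il23a 5.43-fold (3.01 to 10.5), Tnfsf9 2.72-fold (2.61 to 2.83) and the angiogenic factor gene Vegfa 2.56-fold (2.41 to 2.71). The highest value came at 120 min for 10 of the 13 and at 45 min for 1, Vegfa. Mif, Ccl9 and Cxcl14, which were not called and had the most reads by the larger of both libraries, were at 0.923 (0.910 to 0.935), 1.18 (1.16 to 1.20) and 0.903 (0.877 to 0.929).

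Of 23 survival and stress-induced genes, 17 were called higher (73.9%, against 1.78% of all genes with enough reads) and none lower, with a list median of 1.57. Ppp1r15a encodes the phosphatase subunit GADD34, which reverses the translational block of the stress response. It had scaled counts of 1631, 7220, 78032, 78094, 26096, 8503, 10383 and 16380 and a ratio of 10.8 (10.6 to 11.1), so that the 30 and 45 min values were level and the value at 75 min was again close to that at 15 min. Gadd45a, a stress sensor, was 11.3-fold higher (lower bound 8.19) and Plk2, a polo-like kinase, 8.46-fold (7.87 to 9.09). Cflar encodes an inhibitor of caspase activation and had 6542, 8044, 15073, 39661, 54990, 48558, 51209 and 58987, a ratio of 4.93 (4.81 to 5.05) and a level that was held to 120 min.

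Bcl2l11 encodes the pro-apoptotic protein BIM and was higher over the same step, by 4.10-fold (3.92 to 4.28), with 2036, 2469, 3487, 10122, 21124, 29811, 29729 and 24436. Pmaip1, which encodes NOXA, another pro-apoptotic protein, was 2.35-fold higher (2.23 to 2.47) and the anti-apoptotic gene Mcl1 2.15-fold (2.12 to 2.17). The list thus had members of opposite role among those called. Ptgs2, the inducible cyclooxygenase gene, was 4.59-fold higher (upper bound 4.89), Phlda1 5.84-fold (4.75 to 7.23), Plk3 4.04-fold (3.78 to 4.31), Trib1 3.39-fold (3.19 to 3.60), Rgs1, a regulator of G-protein signalling, 2.97-fold (2.84 to 3.11) and Rhob, a small GTPase gene, 2.90-fold (2.74 to 3.06). Gadd45b, Gadd45g, Sertad1 and Sgk1 were between 2.33-fold (Sgk1, 1.86 to 2.95) and 3.64-fold (Gadd45g, 3.13 to 4.23). Among those not called, Birc3, an inhibitor of apoptosis, was at 1.90 (1.85 to 1.96), Birc2 at 1.16 (1.10 to 1.21) and Rgs2 at 0.608 (0.583 to 0.633).

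In the SOCS and Pim list, which holds feedback regulators of cytokine receptor signalling and related kinases, 3 of 9 were called higher and none lower. That is 33.3% higher, against 1.78% of all genes with enough reads. The kinase gene Pim1 was 8.57-fold higher (7.91 to 9.29), Socs3 4.44-fold (4.28 to 4.62) and Socs1 2.63-fold (1.72 to 4.09, from 33 and 73 reads). Pim3 was at 1.64-fold (1.59 to 1.69). Of 13 interferon-stimulated genes, 3 were called higher (23.1%, against 1.78% of all genes with enough reads). They were Cxcl10, Isg15 and Ifit1, the last 2 from at most 88 reads, with ratios of 3.60 (2.34 to 5.69) and 2.13 (1.42 to 3.24). Oasl1, which was not called, was at 1.92 (1.77 to 2.08).

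Id proteins, which block basic helix-loop-helix factors, differed between family members. Id1 had scaled counts of 281, 302, 211, 81.3, 118, 183, 197 and 320, was lowest at 45 min, and had a ratio of 0.270 (0.206 to 0.349). Id3 had 4098, 5359, 8613, 16191, 21086, 16360, 18922 and 19713 and a ratio of 3.02 (2.93 to 3.12). The same stimulus was thus accompanied by values of opposite direction in these paralogs. Id2, chosen here after its value was seen, was not called, at 0.796 (0.702 to 0.901). The list of 10 had 2 called higher (Id3 and the repressor gene Tgif1 at 2.27, 2.15 to 2.38) and 1 lower. The shares of all genes with enough reads were 1.78% and 0.670%. Skil, a repressor of SMAD signalling, was at 1.84 (1.80 to 1.88).

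The components that carry the signal were mostly level. Of 24 genes of the TLR4 pathway, 1 was called higher, 4.17% against the background of 1.78%, and none lower. It was Map3k8, the kinase TPL2 that links NF-kB signalling to ERK, with 858, 960, 1943, 2104, 1026, 663, 955 and 910 and a ratio of 2.19 (2.03 to 2.37). The receptor component Cd14 was at 1.66 (1.64 to 1.67), the adaptor Myd88 at 1.12 (1.09 to 1.15) and the kinase Map3k7 at 1.09 (1.06 to 1.12). None of 16 MAPK cascade kinases was called in either direction, against 1.78% higher and 0.670% lower of all genes with enough reads. At those shares, lists as short as this one and that of the TLR4 pathway would hold few or no called genes. The 16 kinases had a median of 0.04 (-0.08 when scaled by total counts) and a range of -0.13 to 0.44. Mapkapk2 was at 1.06 (1.05 to 1.07) and Map2k1 at 0.951 (0.932 to 0.970). None of 79 genes of cytoplasmic ribosomal proteins was called, against the same shares, and their median was -0.04 with a range of -0.19 to 0.11.

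**Figure D3:**
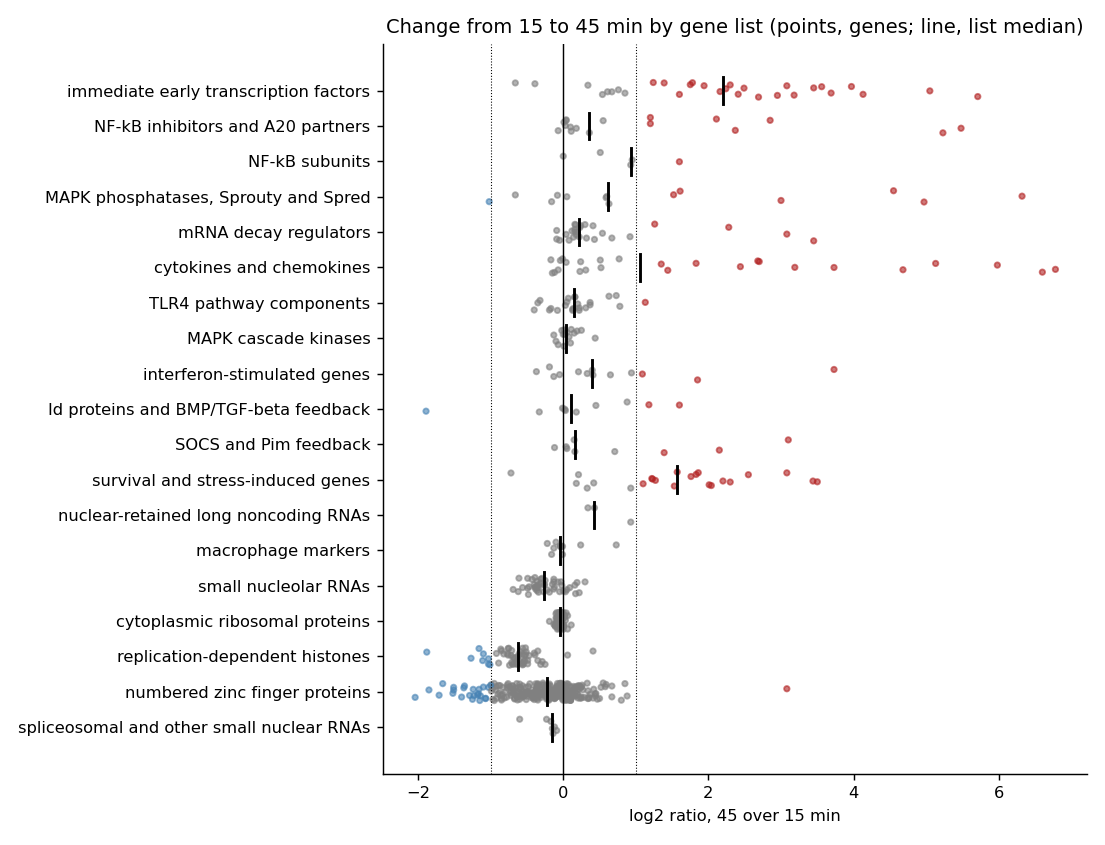
Log2 ratio of 45 to 15 min for the members with enough reads of 19 gene lists, 1 point per gene; black bars are list medians, dotted lines mark 2-fold, red points were called higher and blue ones lower. Immediate early factors, cytokines and survival genes had medians of 2.20, 1.06 and 1.57, MAPK cascade kinases and ribosomal proteins lay close to 0, and the genes called lower stood mostly among histones and numbered zinc finger proteins.

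The 74 genes called lower had smaller ratios, with a median of -1.17 on the log2 scale. Txnip encodes a thioredoxin-binding protein that limits glucose uptake. It had scaled counts of 31539, 32374, 17100, 6950, 4959, 6572, 6399 and 6899, level from 0 to 15 min, lower at each step to 60 min, and still low at 120 min. The ratio of 45 to 15 min was 0.215 (0.209 to 0.221), which is 4.66-fold lower. Arrdc3, another arrestin-domain gene chosen here after its value was seen, was at 0.443.

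The next genes by upper bound had fewer reads. Alkbh4, a dioxygenase gene, had 721, 749, 470, 176, 220, 424, 390 and 382 and a ratio of 0.235 (0.197 to 0.280), its lowest value being at 45 min with partial recovery later. F630028O10Rik, a noncoding RNA whose span holds the gene of the microRNA miR-223, had 486, 599, 260, 140, 114, 66.2, 102 and 157 and a ratio of 0.234 (0.191 to 0.284). Zkscan4, a zinc-finger gene with a KRAB and a SCAN domain, had a ratio of 0.222 (0.154 to 0.312), from 214 and 40 reads. AI467606 was at 0.338 (0.313 to 0.365), Tigd5 at 0.322 (0.263 to 0.393) and Zfp870 at 0.350 (0.308 to 0.397), and each was lowest at 45 min.

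Zinc finger genes made up the largest named group among the lower ones. Of 274 genes with a numbered Zfp symbol and enough reads, 23 were called lower (8.39%, against a background of 0.670%) and the median was -0.23; many genes with such symbols encode KRAB zinc-finger repressors. The 1 called higher was Zfp36, which encodes an RNA-binding protein and not a DNA-binding factor. Zfp324 had scaled counts of 2182, 2178, 1642, 923, 600, 498, 391 and 305, lower in each library from 30 min to the end, and a ratio of 0.424 (0.391 to 0.459). Zfp157 was at 0.388 (0.347 to 0.433), Zfp108 at 0.352 (0.272 to 0.451) and Zfp61 at 0.409 (0.363 to 0.460). For 14 of the 23 the lowest value came at 60 min and for 6 at 45 min, and at 120 min 11 were at least 2-fold below the unstimulated library. The remaining members called lower had ratios between 0.243 (Zfp786, 0.138 to 0.406) and 0.490 (Zfp14, 0.348 to 0.682), and the interval of several of them spans the limit.

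Replication-dependent histone genes were lower as a list. Of 57 with enough reads, 8 were called lower (14.0%, against 0.670% of all genes with enough reads). A log2 ratio below 0 was found for 55, against 5886 of all 11039 genes, and the median was -0.63. Their summed scaled count was 1681682, 1557445, 1182525, 999112, 1275074, 1394137, 1462557 and 1572672 in the order of time. The sum was thus lowest at 45 min and came back near its starting level by 120 min. The 45 min library was also the lowest of the 8 for the summed small nucleolar RNAs (60431, against 114069 at 0 min). The same held for the summed small nuclear RNAs (1746757, against 2616901 at 0 min). A link of these values with the histone minimum was not tested. Hist1h1d, a linker histone gene, had a ratio of 0.495 (0.490 to 0.500), Hist2h4, a histone H4 gene, 0.464 (0.458 to 0.471), and Hist1h3g, a histone H3 gene, 0.415 (0.405 to 0.426). Values of single histone genes are uncertain, because near-identical copies share reads and reads matching more than 1 gene were discarded. Histone mRNAs are made in S phase and lack a poly(A) tail, and such RNAs are kept when ribosomal RNA is removed in place of poly(A) selection.

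The genes with ratios nearest to the limit show where the calls end. Just inside were 4632427E13Rik (1.002 on the log2 scale), Srgn (1.012) and Gltscr1 (1.014), and just outside Slmap (0.982), Pstpip2 (0.989) and Ptpn23 (0.990). On the lower side Dusp6 (-1.018) and Hist1h1d (-1.015) were inside, and Zfp760 (a little short of the limit), Zfp775 (-0.991) and Pars2 (-0.986) were outside. Apart from Dusp6 and Hist1h1d these were chosen for their place at the limit.

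Whether the same genes moved in libraries that the calls did not use was read from the pairs 30 against 0 min and 60 against 0 min, all 3 of them libraries with a low Rn45s share. The pairs share the 0 min library, so their values are given side by side. At 30 min, 1.03% of 11155 genes with enough reads were at least 2-fold above 0 min and 0.117% at least 2-fold below; at 60 min the shares were 2.84% and 1.74% of 11178. Of the genes called higher from 15 to 45 min, 90 of the 185 with enough reads in the first pair were at least 2-fold higher there (48.6%, exact Clopper-Pearson 95% interval 41.2% to 56.1%), and 171 of 194 in the second (88.1%, 82.7% to 92.3%). Of the genes called lower, 2 of 72 were at least 2-fold lower at 30 min (2.78%, 0.338% to 9.68%) and 50 of 73 at 60 min (68.5%, 56.6% to 78.9%). None was at least 2-fold changed in the opposite direction in either pair. A gene with few reads at 0 min enters a pair only if it has enough in the later library, which can raise the shares for the genes called higher. Csf3, with 3, 17 and 570 reads at 0, 30 and 60 min, entered only the second pair.

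The sign was shared by more genes than the 2-fold limit shows. A log2 ratio of the same sign was found at 30 min for 180 of the 185 genes called higher (97.3%, against 52.7% of all genes) and for 64 of the 72 called lower (88.9%, against 47.3%). Median log2 ratios at 30 and 60 min were 0.98 and 2.12 for the genes called higher and -0.41 and -1.35 for those called lower. By list, 19 of 30 immediate early factors were at least 2-fold higher at 30 min and 25 of 30 at 60 min. Of the survival and stress genes 9 of 23 and 17 of 23 were, against 1.03% and 2.84% of all genes. Of the numbered zinc finger genes none of 276 was at least 2-fold lower at 30 min and 53 of 274 were at 60 min. The shares of all genes were 0.117% and 1.74%. The histone list had medians of -0.50 at 30 min and -0.36 at 60 min. At least 2-fold lower were 0 and 1 of its 57 genes, near the shares of all genes.

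**Figure D4:**
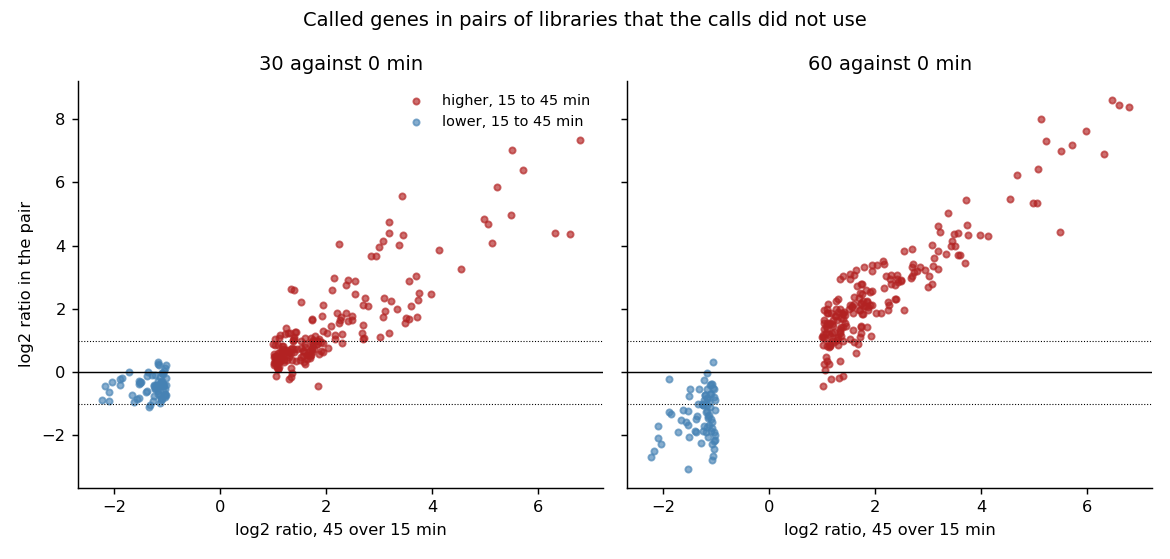
Log2 ratio in the pairs 30 against 0 min (left) and 60 against 0 min (right) against the log2 ratio of 45 to 15 min, for the genes called higher (red) and lower (blue) that have enough reads in the pair and a read at 0 min. Points beyond the dotted lines differ by at least 2-fold in the pair, and at 60 min 171 of the red and 50 of the blue genes do so in the direction of the call.

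The calls themselves rest on the 15 and 45 min values, so the levels of these genes in those libraries against 0 min are a description. Of the 196 genes called higher, 19 were at least 2-fold above the unstimulated library in the 15 min library, and the number was 95, 184, 171 and 146 in those of 30, 45, 60 and 120 min. The 30 min value lay between those of 15 and 45 min in 193 of them, and the median share of the log2 change that had been reached by then was 51.1% (quartiles 35.9% and 65.6%). The 45 min library held the highest of the 8 values for 62 genes, the 60 min library for 33, those of 75 and 90 min for 22 and that of 120 min for 78; 1 gene was highest at 30 min. By 120 min, 41 genes were at least 2-fold below their 45 min level and 56 at least 2-fold above it. For the genes called lower the median share reached at 30 min was 38.2% (quartiles 26.3% and 50.9%), and the lowest value came at 45 min in 31 and at 60 min in 21 of 74.

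The lists differed in when the highest value came. Of the genes called higher, 11 of 22 immediate early factors had their highest value at 45 min or before, and 10 of 13 cytokines at 120 min. By 120 min 11 of the 22 factors were at least 2-fold below their 45 min level and none of the 13 cytokines was, while 8 of the cytokines were at least 2-fold above it. The median share of the log2 change reached at 30 min was 75.8% for the factors, 75.9% for the 7 NF-kB inhibitors, 64.8% for the cytokines, 58.1% for the survival and stress genes and 23.5% for the zinc finger genes called lower. For a steady change in scaled counts this share is larger for a large rise than for a small one, and smaller still for a fall. It therefore does not rank the lists, or the genes called higher and lower, by timing alone.

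Genes that differed over this step were short in the genome. The median annotated span was 9.65 kb for the genes called higher, 7.81 kb for those called lower and 21.9 kb for all genes with enough reads. With all genes divided by span into 5 sets of equal size, 3.68% of the set with the shortest and 0.545% of that with the longest spans were called higher, and 1.54% and 0 were called lower. Transcript lengths differed less, with medians of 2698, 2577 and 2951 bases. Across 5 such sets by transcript length the median log2 ratio of all genes went from -0.06 in the shortest to 0.07 in the longest.

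Within the genes called higher, shorter genes had covered more of the log2 change at 30 min. The 99 genes under 10 kb had reached a median of 60.6% of their log2 change, the 69 from 10 to 30 kb 44.8% and the 28 of at least 30 kb 29.1%. Seen from the other side, the 32 genes with at least 75% reached at 30 min had a median span of 3.21 kb, and the 18 with under 25% one of 29.4 kb. Spearman's rho between span and the share reached was -0.44 over the 196 genes, a description across genes that share the same 3 libraries. Tnfaip3, with 14.5 kb, had reached 79.2%, above the upper quartile of 62.0% for the genes from 10 to 30 kb. Bcl2l11 had reached 24.5% and Dusp16 13.2%. For a steady rise in scaled counts this share is larger the larger the ratio, so it does not measure speed alone. The scaled counts of Tnfaip3 at 15, 30 and 45 min were 2529, 51275 and 112779. The part of ratio size in the link with span was not tested.

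**Figure D5:**
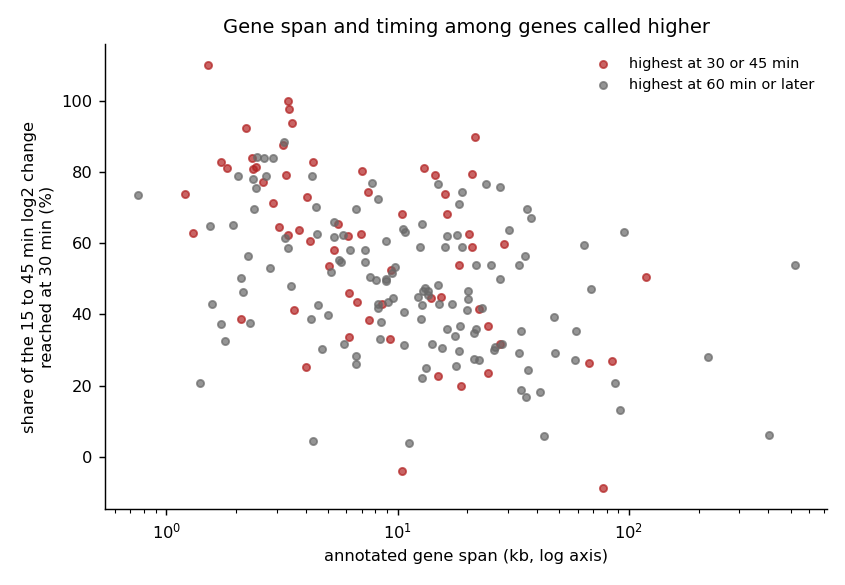
Share of the log2 change from 15 to 45 min that had been reached at 30 min against annotated gene span (log axis) for the 196 genes called higher, 1 point per gene. Red points had their highest value at 30 or 45 min (63 genes, median span 6.71 kb) and grey points at 60 min or later (133 genes, 12.5 kb); the share was lower for longer genes, with wide scatter.

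The promoter windows described above were searched for the same motifs in every gene found in the promoter table used here, 155 of the 196 genes called higher, 55 of the 74 called lower and 8889 of the 11039 with enough reads, a gene counting once if any of its windows held the motif. The kB site was found in 12.9% of the genes called higher, 1.82% of those called lower, 6.09% of all genes with enough reads and 5.14% of all 27025 genes of the promoter table. TGACGT was found in 18.1%, 7.27%, 14.1% and 8.37%, and within it the full TGACGTCA in 6.45%, 0%, 3.88% and 2.03%. The CArG box bound by SRF was found in 5.16%, 1.82%, 1.44% and 1.81%, TGANTCA in 9.68%, 3.64%, 5.89% and 8.97%, GCGTGGGCG in 1.94%, 0%, 1.51% and 0.707%, and TATAAA in 19.4%, 10.9%, 8.61% and 15.7%. A kB site was found in 6 of the 16 immediate early factors called higher that have a window and in 3 of the 8 cytokines. Other motifs were as frequent there, TGACGT in 6 of the same 16, and TGANTCA and TATAAA each in 3 of the same 8. These counts describe letters near annotated starts, and the genes without a match may hold such sites elsewhere.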

How the data were processed

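RNA of RAW264.7 cells was sequenced after removal of ribosomal RNA (Ribo-Zero) with a directional kit, once per time point. The deposited table holds raw counts of reads for 23143 gene symbols, in 1 column per library, with no column left unused. According to the methods, reads of 58 bases were mapped with Bowtie, at most 2 mismatches, to RefSeq transcripts of mm10, all best alignments were kept, and a read was dropped by the authors if it matched several gene symbols. The submitters' processing notes name CASAVA 1.8.2 and DESeq 1.10.1. The version of Bowtie and the use of strand in counting are not given in the sources at hand. Per the labels the molecule was total RNA and the RNA fraction cytoplasmic.

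From the counts, median-of-ratios size factors over the 8 libraries and the ratio of 45 to 15 min were computed with scipy 1.17.1, pandas 2.3.3 and numpy 2.4.6 under Python 3.11.15. With 1 library a side no replicate test exists, so neither edgeR's quasi-likelihood test nor a p-value across genes was used; a blind negative binomial test, with a dispersion estimated by edgeR 4.0.16 in R 4.3.3 over the 8 libraries as 1 group, entered only as an alternative. Whether the libraries came from separate cultures grown in parallel is not stated. Genes needed at least 50 reads in 1 of the libraries of a pair and at least a 2-fold ratio; a count of 0 allows 3 reads. Ratios carry exact conditional binomial and shares exact Clopper-Pearson 95% intervals, both for counting error only. The scripts were tested on simulated data. Total counts of 100250892 to 159077286 leave a count of 0 with at most 0.0299 counts per 1e6 reads.

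Genes named are Tnfaip3, Fosb and Dusp1, the 12 genes called higher with the highest lower bound, the 8 called lower with the lowest upper bound, called members of the gene lists, up to 3 members per list that were not called and have the most reads (by the larger of the 15 and 45 min counts), and Rn45s. Rela, Spred1, Skil and other members not called fall under this rule; genes outside it are marked as chosen after their values were seen. The lists hold the regulators, targets and marker genes named in the text, and 871 listed genes were looked up; Otulin and Spi1 have no row. Members, lists and this comparison were chosen with earlier results of these data known. Gene spans, coordinates and promoters are those of RefSeq on GRCm38.p6, transcript lengths those of GENCODE vM21. Spike-in transcripts were not used here. A few genes that the rule for named genes would name are not reported here.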

Additional observations from a re-analysis of the deposited data

How the results depend on the processing

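Only 1 library exists per time point, so no result has a replicate check and no library could be left out within a time point. No paired analysis was possible because each time point has 1 sample and the comparison comes from no test. The counts of called genes (196 higher, 74 lower) were the same with edgeR TMM factors and with size factors from the 15 and 45 min libraries alone, and within 1.5 times with total counts without Rn45s, a pseudocount of 10, mRNA accessions only, a length trend removed and 0 min in place of 15 min. Total counts gave 112 lower. A minimum of 10 counts gave 345 higher and 166 lower, no minimum gave 1122 and 798, and a minimum of 200 gave 48 lower; fewer or more genes enter by construction. The 1.5-fold limit gave 468 and 333 and the 4-fold limit 73 and 5. Requiring the whole interval beyond 2-fold left 29 lower, and a blind negative binomial p below 0.05 left 44 lower. With 30 min in place of 45 min, 94 were higher and 4 lower. Added after the data were seen, 60 min against 0 min gave 318 higher and 195 lower, of which 171 and 50 were among the 196 and 74, and leaving out genes that overlap another left 128 higher and 51 lower. At the 1.5-fold limit, 36.3% of the higher and 14.2% of the lower genes passed the limit at 30 against 0 min, and 72.4% of the higher ones at 60 against 0 min. Apart from the settings that change the genes or libraries entering, the cause was not tested. The log2 ratios of Tnfaip3, Fosb and Dusp1 lay between 4.85 and 7.86 over the other scales and with 0 min in place of 15 min. Depth limits genes with 1 to 5 reads at 15 min, whose intervals span up to an order of magnitude or more.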

Other observations

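Genes outside the lists, chosen after their values were seen, made up 121 of the 196 genes called higher. Kdm6b, a histone demethylase gene, had scaled counts of 438, 617, 2509, 8375, 8794, 12675, 12919 and 15835 from 0 to 120 min, a ratio of 45 to 15 min of 13.6 (12.5 to 14.7). Cd83, a surface marker of activated antigen-presenting cells, had 4957, 4435, 21133, 54169, 64334, 46243, 49055 and 59076, a ratio of 12.2. Traf1, an adaptor of TNF receptors, was 11.2-fold higher and Nlrp3, the inflammasome sensor, 8.62-fold, and both continued upwards to 120 min. Errfi1, an inhibitor of EGF receptor signalling, was 13.1-fold higher and the lectin receptor gene Clec4e 4.46-fold.

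Vmn2r90, annotated as a vomeronasal receptor, had 1 and 74 reads in the 15 and 45 min libraries, a ratio of 87.8 (15.3 to 3515), and 427 scaled counts at 90 min. It belongs to a family of similar genes, so its count is uncertain. Rn45s was 1.40-fold (1.39 to 1.40) higher at 45 than at 15 min.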
